A study of Arabidopsis thaliana with 28 samples.

Results

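GRX480 (AT1G28480, also named ROXY19) is an Arabidopsis glutaredoxin, and its mRNA was followed in 2 zones of the root tip after transfer of seedlings to hydrogen peroxide (H2O2). It is 1 gene, read by 1 of the 22746 probe sets tested on the ATH1 array and paired with GRX480 alone in the platform annotation. It was singled out for its signal in the elongation zone after 1 h on H2O2, so that contrast is described here without a test. All roots came from seedlings labelled as 5 days old of the ecotype Columbia-0, and the labels name no mutation or transgene. The groups were elongation zones taken 1, 3 and 6 h after transfer to 1 mM H2O2, elongation zones taken at 0, 1, 3 and 6 h on control medium (MS), and the same 7 conditions of the meristematic zone. Each of the 14 groups had 2 arrays, and each array held RNA of 30 pooled root tips cut by razor blade. The mRNA was therefore averaged over all cell types of a zone, and fewer expressing cells cannot be told apart from less GRX480 mRNA per cell.

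Glutaredoxins are small proteins that use glutathione to reduce disulphides and to remove glutathione from other proteins. GRX480 belongs to the CC-type class, which is found in land plants and is named for a pair of adjacent cysteines in the active site. It binds TGA transcription factors in the nucleus, and its mRNA is known to be induced by salicylic acid. Plants that make too much GRX480 have less mRNA of the defensin PDF1.2, a target of jasmonate and ethylene, and of detoxification genes that depend on TGA factors.

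The labelled zones could be told apart by their markers. On control medium at 0, 3 and 6 h, all 6 measured meristem markers (such as the Aurora kinase AUR1 and the stem cell factor BBM) were lower in the elongation zone, and all 6 measured elongation markers (such as UPB1 and XTH21) were higher there (limma, adjusted p under 0.05). In that comparison 23.8% of all probe sets were higher and 31.2% were lower. Within groups, the pairs of arrays had r of 0.965 to 0.987 across probe sets, and array medians lay between 49.4 and 76.3 signal units. Every array of the elongation zone had a lower median than every array of the meristematic zone. On the second principal component of all arrays the 1 h control arrays numbered 1 lay apart from the other 1 h arrays of their zone, and GRX480 is given below without them too. Signals are the deposited linear intensities, and fold changes were taken on log2(signal + 16), which understates the change of a dim gene such as GRX480.

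In the elongation zone after 1 h on H2O2, GRX480 had signals of 146 and 115, against 31.2 and 27.6 on control medium at the same time. The arrays on H2O2 were the brightest and the second brightest for GRX480 of all 28. Roots on H2O2 averaged 131 ± 21.7, against 29.4 ± 2.50 for roots on control medium (SD, n = 2 each), a ratio of 4.45 in signal. On the log2(signal + 16) scale the difference was 1.69 ± 0.26 (SE, 95% interval 1.15 to 2.22), and 25 of the 22746 probe sets had a higher value in that contrast. The interval takes no account of the choice of the gene on this contrast. Both H2O2 arrays lay above both control arrays for 12.1% of probe sets there, and 0.0308% were called in either direction, from which nothing is read because the gene was chosen on this contrast. Without the 1 h control arrays numbered 1 of both zones the difference was 1.74, and without those numbered 2 it was 1.63. The ratio of 3′ to 5′ signal of the GAPDH control probe sets, a measure of RNA integrity, averaged -0.06 on H2O2 and 0.10 on control medium (log2), and its part in the GRX480 difference was not tested.

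At 3 h on H2O2 in the elongation zone the GRX480 signals were 56.6 and 84.2, against 38.5 and 68.4 on control medium. The groups overlapped, and the control array at 68.4 was the brightest for GRX480 of the 16 control arrays of both zones. The difference of 0.33 ± 0.26 (log2, SE, 95% interval -0.21 to 0.87) was not called by limma (adjusted p = 0.961), and 0.136% of probe sets were called. It was 0.01 without the dimmer control array and 0.10 without the brighter H2O2 array, against 0.65 without the brighter control array. Its size thus depended on single arrays.

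At 6 h on H2O2 the elongation zone gave 37.4 and 45.0, against 49.8 and 30.7 on control medium, and both H2O2 arrays lay between the control arrays. The difference was 0.04 ± 0.26 (log2, SE, 95% interval -0.49 to 0.58; limma adjusted p = 0.995, with 0.0572% of probe sets called). Over 3 and 6 h together, GRX480 was 0.19 ± 0.18 apart on the log2 scale (SE, 95% interval -0.19 to 0.57; limma adjusted p = 0.804), where 0.448% of probe sets were called. An exact permutation test of the media within these times, 2-sided, gave p = 0.5, but it cannot go below 0.0556.

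**Figure D1:**
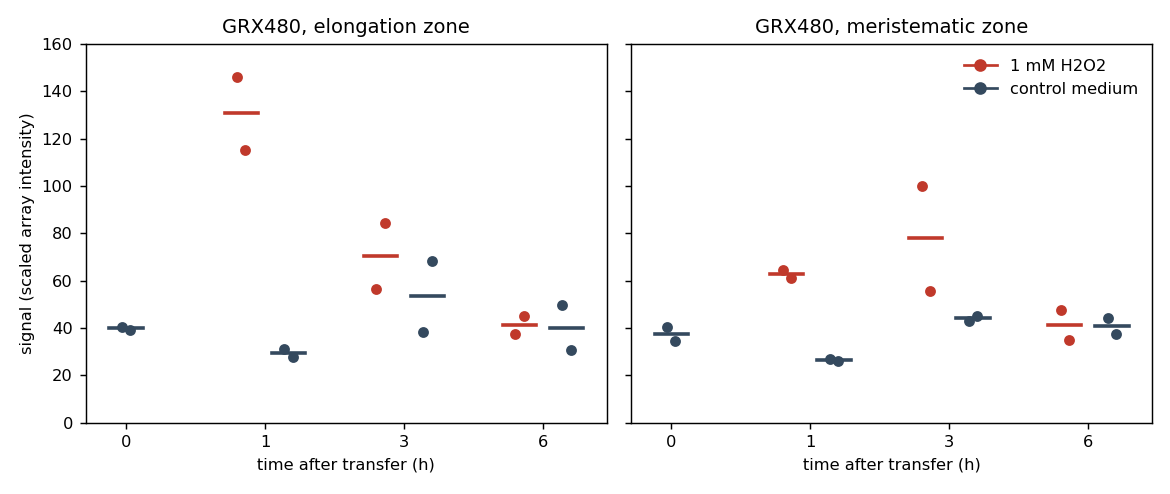
Deposited linear signal of GRX480 on every array (points) with the mean of each group (bars), by time after transfer, in the elongation zone (left) and the meristematic zone (right). Arrays on 1 mM H2O2 (red) stand apart from control medium (dark) at 1 h in both zones, at 115 to 146 in the elongation zone, and at 61.1 to 64.6 in the meristematic one, and the media overlap at 6 h. The 1 h contrast of the elongation zone chose the gene.

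The meristematic zone was not used to choose GRX480. After 1 h on H2O2 its GRX480 signals were 64.6 and 61.1, against 27.0 and 26.0 on control medium. Both H2O2 arrays lay above both control arrays, as they did for 14.6% of all probe sets. Roots on H2O2 averaged 62.9 ± 2.48, against 26.5 ± 0.725 for roots on control medium (SD, n = 2 each), so the difference was larger than the spread of the arrays. It came to 0.89 ± 0.26 on the log2(signal + 16) scale (SE, 95% interval 0.35 to 1.43), with 86 probe sets higher. The unadjusted p of limma, 0.00252, was the 31st smallest, but adjusted over all probe sets it was 1.00. In this comparison limma called 0% of probe sets, and 2.25% of them (511) had an unadjusted p under 0.05. The value was 0.91 without the 1 h control arrays numbered 1 and 0.87 without those numbered 2. The GAPDH 3′ to 5′ ratio averaged 0.54 on H2O2 and 0.34 on control medium (log2), and its part in the result was not tested.

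At 3 h on H2O2 the meristematic zone gave GRX480 signals of 100.1 and 55.7, against 43.1 and 45.2 on control medium. Both H2O2 arrays lay above both control arrays, as they did for 16.4% of probe sets at that time. The H2O2 arrays lay far from each other, however. The difference of 0.60 ± 0.26 (log2, SE, 95% interval 0.06 to 1.14) was not called (limma adjusted p = 0.912, with 0.0396% of probe sets called). It was 0.25 without the brighter H2O2 array and 0.95 without the dimmer one.

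At 6 h on H2O2 the meristematic zone gave 47.7 and 34.8, against 44.4 and 37.4 on control medium, where the H2O2 arrays enclosed the control arrays. The difference was 0.00 ± 0.26 (log2, SE, 95% interval -0.53 to 0.54; limma adjusted p = 0.999, with 0.136% of probe sets called). The H2O2 effect at 6 h minus that at 1 h was -0.89 ± 0.36 (SE, 95% interval -1.65 to -0.13), which was not called either (limma adjusted p = 1.00, with 0.0044% of probe sets called).

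Averaged over 1, 3 and 6 h in the meristematic zone, GRX480 was 0.50 ± 0.15 higher on H2O2 (log2, SE, 95% interval 0.19 to 0.81), a difference that limma did not call over all probe sets (adjusted p = 0.356, with 0.259% called). For GRX480 alone, the exact permutation test of the media within these times, 2-sided, gave p = 0.037 among 216 arrangements, the smallest possible being 0.00926. Adjusted over the 4 such tests made, it was 0.148. Of the 6 arrays on H2O2, GRX480 was above both control arrays of its time on 5 and below both on 1, the second 6 h array.

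**Figure D2:**
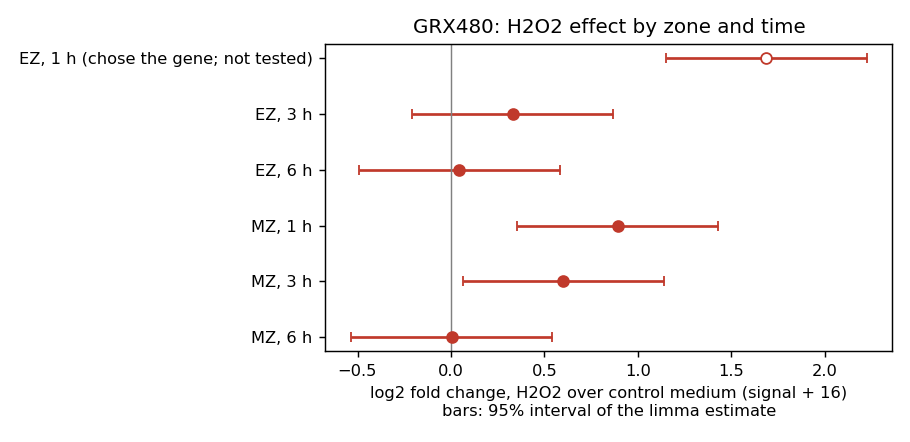
Log2 fold change of GRX480, H2O2 over control medium, by zone and time, with 95% intervals of the limma estimate (EZ, elongation zone; MZ, meristematic zone; 2 arrays per medium at each point). The open point is the contrast that chose the gene and was not tested, and its interval takes no account of that choice. At 1, 3 and 6 h the values are 1.69, 0.33 and 0.04 in the elongation zone, against 0.89, 0.60 and 0.00 in the meristematic zone.

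Away from 1 h, no difference of GRX480 between the zones was called with the values as deposited. On control medium at 0, 3 and 6 h GRX480 averaged 44.5 ± 13.2 in the elongation zone, against 40.8 ± 4.19 in the meristematic zone (signal, SD, n = 6 each). The difference was 0.07 ± 0.15 (log2, SE, 95% interval -0.24 to 0.38; limma adjusted p = 0.737). This comparison called 55% of all probe sets, and GRX480 was among the rest. Setting all arrays to the same median moved the median of all probe sets from -0.04 to 0.24, and GRX480 then stood 0.35 higher in the elongation zone (limma adjusted p = 0.0428). Under quantile normalisation, which put the median of all probe sets at 0.00, GRX480 stood at 0.28 and was not called (limma adjusted p = 0.121). The GAPDH 3′ to 5′ ratio also split by zone (log2). Its group means were -0.09 to 0.12 in the elongation zone, against 0.34 to 0.56 in the meristematic zone. The part of this ratio in the zone differences of any gene was not tested.

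On H2O2 at 3 and 6 h the zones differed by -0.05 ± 0.18 for GRX480 (log2, SE, 95% interval -0.43 to 0.33; limma adjusted p = 0.867, with 52% of probe sets called). The H2O2 effect at these times, elongation minus meristematic zone, was -0.12 ± 0.26 (SE, 95% interval -0.65 to 0.42; limma adjusted p = 0.999, with 0.0044% called). At 1 h the effect was 0.79 ± 0.36 larger in the elongation zone (SE). This is a description that was not tested, because it holds the arrays that chose the gene, which favours a large value. Across the 7 conditions, the group means of GRX480 in the elongation zone correlated with those in the meristematic zone with r = 0.821, and with r = 0.948 over the 5 conditions without 1 h.

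Control medium itself gave the dimmest GRX480 signals at 1 h. The 4 control arrays of 1 h, of both zones, lay at 26.0 to 31.2, against 30.7 to 68.4 on the other 12 control arrays. Those of the elongation zone belong to the contrast that chose GRX480, which favours low values there, so their dimness is no finding. In the meristematic zone GRX480 averaged 26.5 ± 0.725 at 1 h and 37.5 ± 4.07 at 0 h on control medium (signal, SD, n = 2 each), a difference of -0.33 ± 0.26 (log2, SE; limma adjusted p = 0.897, with 0.114% of probe sets called). The limma F test over the 4 control times of that zone gave an adjusted p of 0.872, with 0.365% of probe sets called. Over 0, 3 and 6 h of the elongation zone, control medium gave an adjusted p of 0.855, with 0.0176% called.

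Set against the 0 h roots instead of the control of the same time, the meristematic zone on H2O2 was 0.56 ± 0.26 higher at 1 h (log2, SE; limma adjusted p = 0.592, with 0.211% of probe sets called). At 3 h it was 0.77 ± 0.26 higher (limma adjusted p = 0.311, with 0.558% called). These values share their 0 h arrays. Along the time on H2O2, GRX480 at 6 h relative to 3 h was -0.58 ± 0.26 on the log2 scale in the elongation zone (limma adjusted p = 1.00). In the meristematic zone this step was -0.68 ± 0.26 (limma adjusted p = 0.92). For these steps limma called 0% of probe sets in either zone. An unadjusted p under 0.05 was found for 4.7% of them (1069) in the elongation zone, against 5.04% (1146) in the meristematic zone.

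Ordered by mean signal, the elongation zone on H2O2 for 1 h came first for GRX480, at 131, and did not overlap with the next group, the meristematic zone on H2O2 for 3 h, at 77.9 ± 31.4. The elongation zone on H2O2 for 3 h (70.4 ± 19.5), the meristematic zone on H2O2 for 1 h (62.9 ± 2.48) and the elongation zone on control medium for 3 h (53.5 ± 21.1) followed, each overlapping with its neighbours. Then came 7 groups with means of 37.5 to 44.1, in which every neighbour in the order overlapped. They were the 0 h roots of both zones, the 6 h roots of both zones and media, and the meristematic zone on control medium for 3 h. The lowest were the 1 h control groups, at 29.4 for the elongation zone and 26.5 for the meristematic zone, which overlapped neither with each other nor with the 0 h meristematic zone above them. The 1 h groups of the elongation zone, on H2O2 and on control medium, are those that chose GRX480. Their places and gaps in this order are descriptions only. The residual SD of GRX480 within groups was 0.243 on the log2 scale, and 46.3% of probe sets had a smaller one.

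None of the other CC-type glutaredoxins was called by limma on H2O2, where the called share of all probe sets was 0% to 0.136% over the comparisons. Of 20 listed relatives of GRX480 16 were measured, and the 6 comparisons of H2O2 with control medium were run for each. At 1 h on H2O2 in the elongation zone their log2 fold changes ran from -0.33 to 0.43 with a median of -0.03, beside -0.02 over all probe sets and 1.69 for GRX480. GRX480 was chosen on this contrast, so its place above its relatives there is no finding. In the meristematic zone at 1 h they ran from -0.49 to 0.73 with a median of 0.03, beside 0.01 over all probe sets and 0.89 for GRX480. None had an unadjusted p under 0.05 at 1 h, beside 6.69% of all probe sets in the elongation zone, against 2.25% in the meristematic one. In the meristematic zone 3 of 16 did at 3 h and 2 of 16 at 6 h, beside 5.05% and 8.03% of all probe sets. In the elongation zone none did at 3 or 6 h, beside 5.8% and 7.83% of all probe sets. Their largest value on H2O2, 1.03, was that of AT5G18600 at 3 h in the meristematic zone (limma adjusted p = 0.975). Most of the relatives were dim. Over the 28 arrays GRX480 had a median signal of 43.7, exceeded by ROXY1 (48.4) and AT3G62930 (62.4) alone. The median was as low as 0.64 for AT3G62950 and 0.72 for AT4G15690. Adding 16 shrinks fold changes at such signals. The narrow range therefore does not show a lack of response in the dim relatives.

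**Figure D3:**
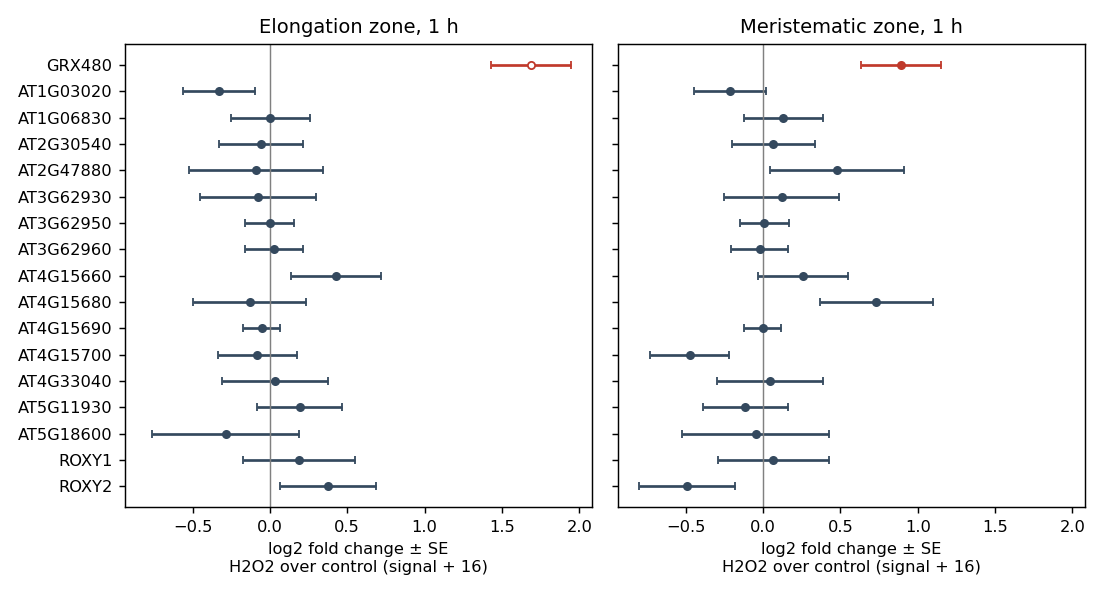
Log2 fold change at 1 h, H2O2 over control medium, with its SE, for GRX480 (red) and the 16 other measured CC-type glutaredoxins (dark), in the elongation zone (left; the open point chose the gene) and the meristematic zone (right). GRX480 lies at 1.69 and 0.89, while the others lie between -0.33 and 0.43 on the left and between -0.49 and 0.73 on the right. Most of the others were dimmer than GRX480, which narrows their range on this scale.

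Between the zones on control medium, limma called 2 of the 16 CC-type relatives as higher and 5 as lower in the elongation zone, beside 23.8% higher and 31.2% lower over all probe sets, and nothing particular to the family is read from this count. ROXY1 and ROXY2, known for their part in petal and anther development, were lower in the elongation zone. ROXY1 averaged 28.6 ± 11.9 in the elongation zone, against 86.0 ± 21.0 in the meristematic zone (signal, SD, n = 6 each; -1.22 ± 0.21, limma adjusted p = 3.22e-05). ROXY2 averaged 6.63 ± 4.21 in the elongation zone, against 39.9 ± 13.1 in the meristematic zone (-1.29 ± 0.18, limma adjusted p = 2.27e-06). AT5G11930, AT4G15700 and AT3G62960 were lower as well, and AT3G62930 (1.22 ± 0.21) and AT4G15660 were higher. With all arrays at the same median the counts were 5 higher and 4 lower, where the split over all probe sets was 41.6% higher and 23.4% lower. AT3G62960 lost its call in that setting, and AT3G62950, AT4G15680 and AT4G15690 gained one as higher. The remaining measured relatives, AT1G03020, AT1G06830, AT2G30540, AT2G47880, AT4G33040 and AT5G18600, were not called in either setting. The AT4G15660 to AT4G15700 genes are close copies of each other, and their probe sets may share transcripts.

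Of 10 glutaredoxins of other classes 5 were measured, and limma called none on H2O2 in any of the 6 comparisons, with 1 of 5 at an unadjusted p under 0.05 (at 6 h in the meristematic zone, beside 8.03% of all probe sets). In the zone comparison 2 were higher (AT5G20500 and AT1G77370) and 2 lower (GRXC2 and AT2G20270) in the elongation zone, where 55% of all probe sets were called in either direction. AT2G20270 lost its call with all arrays at the same median, and GRXC1, not called as deposited, was then higher. Of 9 genes listed for the supply of glutathione and thioredoxin, 2 were measured. The glutathione reductase GR1 was higher (0.51 ± 0.10) and GR lower (-0.59 ± 0.09) in the elongation zone, and neither was called on H2O2. TGA factors, their partners and salicylic acid response genes, the best known company of GRX480, were not analysed here, because the annotation used paired none of the 10, 10 and 8 listed loci with a probe set of its own.

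Detoxification genes that depend on TGA2, TGA5, TGA6 and the GRAS protein SCL14, and that excess GRX480 is known to lower, were measured for 7 of 18 listed genes. One gene of the list, AT4G01870, rose in both zones. At 1 h on H2O2 in the elongation zone it averaged 1535 ± 93.2, against 469 ± 12.2 on control medium (signal, SD, n = 2 each; 1.68 ± 0.25, limma adjusted p = 0.0183). It also rose at 3 h in the elongation zone (1.76 ± 0.25, limma adjusted p = 0.00497) and at 3 h (1.55 ± 0.25, limma adjusted p = 0.0273) and 6 h (1.75 ± 0.25, limma adjusted p = 0.00434) in the meristematic zone. GSTU25, a glutathione transferase, rose at 3 h in the elongation zone, to 5781 ± 373 on H2O2, against 1831 ± 620 on control medium (1.69 ± 0.33, limma adjusted p = 0.0402). These 5 calls are 1 of 7 genes in the elongation zone at 1 h, 2 of 7 at 3 h, and 1 of 7 in the meristematic zone at 3 h and at 6 h, beside called shares of 0.0308%, 0.136%, 0.0396% and 0.136% of all probe sets. The list was chosen with earlier results of these data known, so nothing about the list is read from these shares. All 5 calls had positive values without any 1 of the 4 arrays compared, at 1.22 to 1.95 for AT4G01870 and 1.34 to 2.04 for GSTU25. Each call was lost, however, for most of the arrays left out, where 1 group holds a single array.

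The time courses of these genes can be set beside that of GRX480. GRX480 stood at 1.69, 0.33 and 0.04 in the elongation zone at 1, 3 and 6 h (log2 fold change), where the median of the 7 detoxification genes was 0.93, 1.10 and 0.83, beside -0.02, -0.05 and -0.01 over all probe sets. In the meristematic zone GRX480 stood at 0.89, 0.60 and 0.00, and the median of the list at 0.17, 0.78 and 1.03, beside 0.01, 0.01 and -0.01 over all probe sets. These medians are descriptions, and a difference between the time courses was not tested. GRX480 was chosen for its 1 h value in the elongation zone, so its early peak there is no finding. The glucosyltransferases UGT73B4 (0.83 to 1.19 in the elongation zone, 0.44 to 1.07 in the meristematic zone) and UGT73B5 (0.90 to 1.32 and 0.53 to 1.26) and the glutathione transferase GSTU22 (0.68 to 0.73 and 0.17 to 1.07) had positive values at all 3 times in both zones, and limma called none of them without a replicate block. AT3G04000 (-0.48 to 0.08 in the elongation zone, -0.23 to 0.29 in the meristematic zone) and AT2G29340 (-0.24 to 0.10 and -0.08 to 0.11) had values of both signs and were not called.

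**Figure D4:**
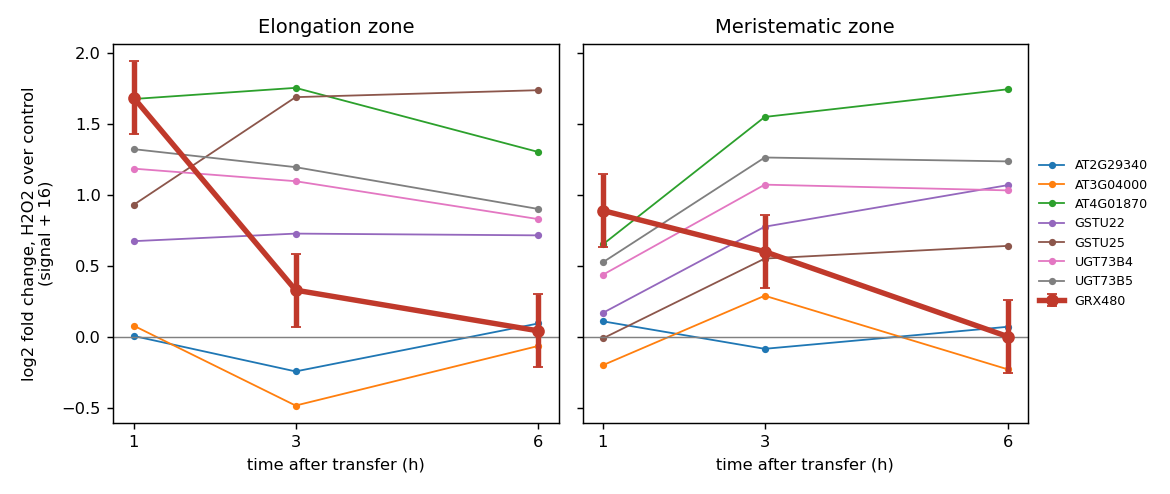
Log2 fold change, H2O2 over control medium, at 1, 3 and 6 h for GRX480 (thick red line, with its SE) and the 7 measured TGA2/5/6- and SCL14-dependent detoxification genes (thin lines), in the elongation zone (left) and the meristematic zone (right). At 6 h GRX480 lies at 0.04 and 0.00, while AT4G01870, GSTU25, GSTU22, UGT73B4 and UGT73B5 lie between 0.64 and 1.75, and AT3G04000 and AT2G29340 between -0.23 and 0.10. The 1 h contrast of the elongation zone chose GRX480.

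PDF1.2, the defensin gene that excess GRX480 is known to lower, was the 1 measured gene of 7 listed for jasmonate and ethylene. On H2O2 at 1, 3 and 6 h it stood at 0.59, -0.52 and -0.11 in the elongation zone, against 0.29, 0.83 and 0.52 in the meristematic zone (log2 fold change), and limma called none of these (smallest adjusted p = 0.721). On control medium PDF1.2 was lower in the elongation zone, at 34.2 ± 9.33 against 56.3 ± 19.3 in the meristematic zone (signal, SD, n = 6 each; -0.51 ± 0.18, limma adjusted p = 0.0204), a call lost under quantile normalisation and with all arrays at the same median.

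The genes whose pattern was most like that of GRX480 were ranked by Pearson's r over the 14 group means, among 6524 genes whose means spanned at least 1 on the log2 scale. AT1G26270 came first (r = 0.817 over groups, 0.579 over the 28 arrays), then AT2G04840 (0.796), AT5G07860 (0.795), AT4G33940 (0.785), AT5G14730 (0.772), the glucosyltransferase gene UGT73C7 (0.770), AT1G21680 (0.759) and AT2G32020 (0.749). Over the 28 arrays their r ran from 0.452 (AT2G32020) to 0.650 (AT5G07860). AT2G04840 was dim, with a mean signal of 8.18 and wide spread (9.91 ± 12.1 in the elongation zone on control medium at 6 h), so little is read from its place. The ranking used group means, which share their arrays, scaling and the elongation zone on H2O2 at 1 h. That group is the one that chose GRX480, so a shared peak there is no finding. In the elongation zone alone, over 7 groups and 1363 genes, AT1G26270 (0.950), AT1G21000 (0.910), UGT73C7 (0.873), AT1G21680 (0.871) and AT5G07870 (0.855) came first.

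AT5G07870 averaged 2435 at 1 h on H2O2 in the elongation zone, against 638 on control medium (signal, n = 2 each; log2 difference 1.99 ± 0.32, SE). This is a description with no test, because the ranking used these groups. In the meristematic zone alone, over 7 groups and 772 genes, AT3G42330 (0.834), AT4G17900 (0.822), AT4G24160 (0.815), AT3G11580 (0.805) and AT4G33230 (0.800) had the highest r with GRX480. None of these 5 was among the genes most alike in the elongation zone or over both zones. AT3G42330 and AT4G33230 were dim, with mean signals of 11.1 and 8.04 over all arrays. Of the 15 genes named, 3 came up under more than 1 of the 3 measures.

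**Figure D5:**
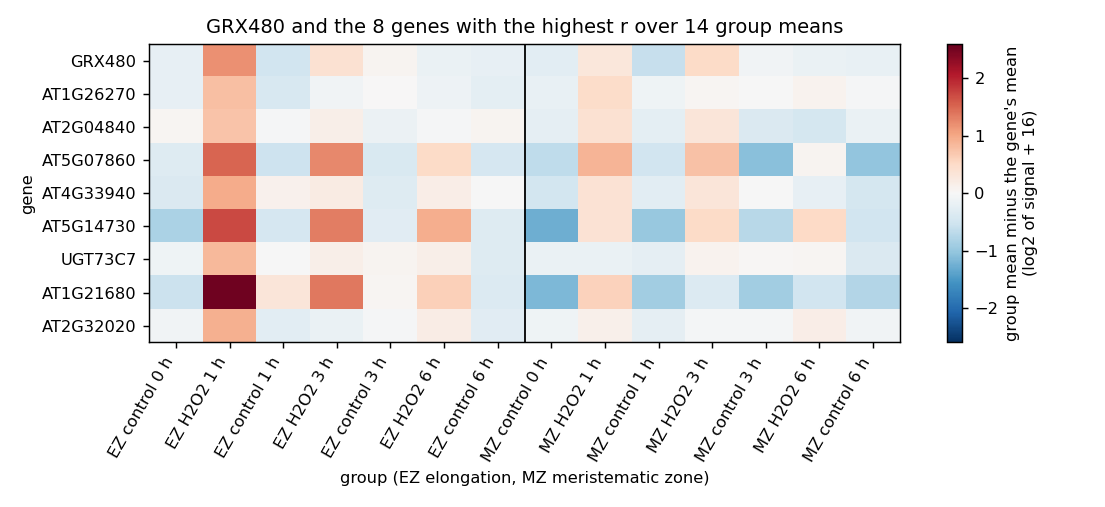
Group means of GRX480 and the 8 genes with the highest r over 14 groups, on the log2(signal + 16) scale, each minus the gene's own mean (colour; EZ, elongation zone; MZ, meristematic zone). The column of the elongation zone on H2O2 at 1 h is the highest of each row, which the ranking by likeness to GRX480 favours, and AT1G21680 varied most, over a span of 3.70, against 1.20 for AT1G26270.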

How the data were processed

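Affymetrix ATH1 arrays of 14 groups of Arabidopsis root tips were analysed, 2 arrays each. The deposited values are linear intensities, 1 per probe set, which the authors made with MAS5 or GCRMA. Both tools stand in the submitters' processing notes, but not which of them gave these numbers. The 2% trimmed mean is 250 on all arrays, the mark of global scaling in MAS5. The 64 control probe sets were left out. Genes were named from the platform annotation and a RefSeq table of assembly TAIR10.1, used for names only, which matched 13436 of 13513 single-gene probe sets. Where a gene had several, the brightest stood for it.

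Groups came from the labels, which call the replicates biological. All 28 arrays entered 1 fit of log2(signal + 16) in limma 3.58.1 under R 4.3.3, using 1 mean for each group and eBayes with an intensity trend. Tests were 2-sided with Benjamini-Hochberg adjustment over 22746 probe sets, and adjusted p under 0.05 was called. The fit was tested on simulated arrays. Detection calls were not used, so whether a signal stood above background is unknown. With 2 arrays per group, their number limits the precision.

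Gene lists covered 92 loci in 8 lists, of which 31 were measured. Every measured CC-type glutaredoxin was named, and of the other lists each called member, up to 4 by absolute log2 fold change. The remaining list genes named were chosen after their values were seen. The 8 genes with the highest r to GRX480 over all groups and 5 per zone were named. GRX480 and the lists were chosen with earlier results of these data known. Other pseudocounts, scalings, filters and fits, left-out arrays, and (added after seeing the data) exact permutation tests and left-out arrays for the list counts were tried. Probe sets of close relatives may share transcripts.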

Additional observations from a re-analysis of the deposited data

How the results depend on the processing

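GRX480 stayed outside the threshold in all 13 tested comparisons under every alternative run except 1. With all arrays at the same median it was called as higher in the elongation zone on control medium, at 0.35. The descriptive 1 h value of the elongation zone was 1.06 with a pseudocount of 64 and 2.11 with a pseudocount of 1, and 1.53 to 1.84 without 1 array. At 3 h the value of the elongation zone ran from 0.01 to 0.65 without 1 array, against 0.25 to 0.95 in the meristematic zone. The 1 h value of the meristematic zone kept its sign, at 0.49 to 1.21 over other settings and 0.86 to 0.92 without 1 array. The uncalled 6 h values changed sign without 1 array (-0.20 to 0.29 in the elongation zone, -0.16 to 0.17 in the meristematic zone). So did the uncalled zone differences (-0.04 to 0.17 on control medium, -0.22 to 0.13 on H2O2, -0.29 to 0.06 for the H2O2 effect). The 5 calls of list genes on H2O2 became 3 without the intensity trend, 1 with only the arrays of the zone, and 2 to 7 without 1 array (left-out arrays for these list counts were chosen after seeing the data). The 17 zone calls became 11 with a mean signal of at least 50, which tests fewer list genes, and 16 to 18 without 1 array. With the replicate number as a block, calls on H2O2 came to 16, of which UGT73B4 and UGT73B5 made 4 each and GSTU22 made 1 (smallest adjusted p of limma 0.00339, 0.0182 and 0.0222). GRX480 was not called with it (0.89 in the meristematic zone at 1 h). The numbers were not taken to pair the arrays, since replicate differences of 91 pairs of groups had correlations of -0.11 to 0.44, with 45 above 0.1. Arrays numbered 1 lay on the same side of those numbered 2 on the second principal component in 14 of 14 groups, however, and the same condition in the other zone gave correlations of 0.06 to 0.44. Over all alternatives, the called probe sets at 1, 3 and 6 h on H2O2 numbered 0 to 273, 0 to 67 and 0 to 54 in the elongation zone (7, 31 and 13 as reported), against 0 to 35, 1 to 37 and 2 to 115 in the meristematic zone (0, 9 and 31 as reported). The highest were reached with the block or, at 1 h, without the control arrays numbered 2. Signal over background could not be judged, which limits what can be said of GRX480 on control medium.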
